A study of Mus musculus with 8 samples.

Results

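The array used for these livers carried 149782 probes other than controls, and 8298 of them were named by an Ensembl mouse transcript identifier, which starts with ENSMUST. Of the 8298, 1577 (19%) were kept because the scanner software marked them as well above background in 4 or more of the 8 samples, against 54636 of all 149782 probes (36.5%). The 1577 are the members described here. Among the 8298, 123 were above background on exactly 4 arrays, just inside the limit, and 171 on 3 arrays, just outside it. Another 5642 were above background on no array, and 915 of the members were above background on all 8.

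RNA came from the livers of male mice. Of the 8 samples, 4 were labelled control and 4 were labelled oxaliplatin, from mice given the drug by intraperitoneal injection once a week for 6 weeks. The labels give no strain, age, dose or injection for the controls. Oxaliplatin is a platinum drug for colorectal cancer, and repeated doses can injure the small blood vessels of the liver, a condition called hepatic sinusoidal obstruction syndrome, which the study set out to model. All control arrays were on 1 slide and all oxaliplatin arrays on the other, so slide and group cannot be told apart.

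Ensembl transcript identifiers cover messenger RNAs and many RNAs that encode no protein. Long noncoding RNAs are spliced and polyadenylated much like messenger RNAs, usually at lower abundance, and some are known mainly for what they contain or where they lie: hosts of small nucleolar RNAs or microRNAs in their introns, or transcripts that run opposite to a neighbouring gene from a shared start region. An array probe is a 60-base DNA strand that binds labelled RNA of the matching sequence, so it reports on the part of a transcript it covers.

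The files paired 8297 of the 8298 probes with no gene name and no genome position, and the 1 named probe, for Ucp2, was above background on no array. Members were therefore identified by sequence. The minimum was a shared run of 30 bases. On the same strand, 22 of the 1577 members shared such a run with a curated RefSeq probe of the array, and each of the 22 then carried a RefSeq symbol of a long noncoding RNA. A further 21 lay in a RefSeq promoter window (build GRCm38.p6), which reaches from 250 bases before to 50 bases after a gene's start. The other members have no symbol here.

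The sequences below are those of the members that could be placed in this way and that differed between the groups. They are shown 5′ to 3′ as the array has them. In the first 9, all of long noncoding RNAs, capitals mark the bases shared with the curated probe of the named gene, or, for Snhg5, with that of its 2 curated probes that shares the longer run.
Snhg5: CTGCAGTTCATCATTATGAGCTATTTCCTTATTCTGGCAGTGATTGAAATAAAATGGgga
Zfas1: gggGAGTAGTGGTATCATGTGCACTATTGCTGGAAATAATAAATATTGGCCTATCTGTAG
2310010J17Rik: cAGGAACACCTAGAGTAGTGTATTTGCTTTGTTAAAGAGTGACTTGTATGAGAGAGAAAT
1110046J04Rik: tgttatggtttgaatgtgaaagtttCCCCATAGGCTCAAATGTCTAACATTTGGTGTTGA
Gm20619: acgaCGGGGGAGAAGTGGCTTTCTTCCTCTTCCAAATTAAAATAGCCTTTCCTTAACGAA
5830454E08Rik: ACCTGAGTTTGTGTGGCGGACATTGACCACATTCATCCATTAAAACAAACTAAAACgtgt
BC065397: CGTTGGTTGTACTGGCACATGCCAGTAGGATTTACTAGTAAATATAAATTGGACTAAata
Mir100hg: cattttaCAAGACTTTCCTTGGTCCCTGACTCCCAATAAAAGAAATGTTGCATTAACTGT
Foxd2os: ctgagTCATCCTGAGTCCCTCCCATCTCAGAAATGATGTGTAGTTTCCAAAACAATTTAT

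The next 2 ran opposite to a gene and lay wholly in that gene's promoter window, so every base is in capitals. The first, ENSMUST00000203300, reads the strand opposite to Lockd, a noncoding RNA gene that lies close to Cdkn1b, at chr6:134929008-134929067, from 84 to 25 bases before the Lockd start. The second, ENSMUST00000181488, reads the strand opposite to Zfp932, a zinc finger protein gene, at chr5:109996279-109996338, from 231 to 172 bases before its start (both GRCm38.p6).
Lockd: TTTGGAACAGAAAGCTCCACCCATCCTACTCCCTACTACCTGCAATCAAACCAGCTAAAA
Zfp932: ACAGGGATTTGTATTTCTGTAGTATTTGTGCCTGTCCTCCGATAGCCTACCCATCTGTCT

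Levels are log2 signals after subtraction of each array's 75th percentile, so 0 is that percentile. A difference is the mean of the oxaliplatin arrays minus the mean of the control arrays, and a probe was called at an adjusted p under 0.05 (limma, Benjamini-Hochberg over all 54636 tested probes). Nothing in the labels says more about the replicates than that they are biological, 1 array per sample.

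Hepatocyte markers were all present: 10 of 10 were above background on all 8 arrays. The p53 targets Cdkn1a, Phlda3 and Ccng1, which commonly rise after DNA damage, had less signal in the samples labelled oxaliplatin, by 3.61, 3.57 and 1.58 on the log2 scale (adjusted p = 0.0104, 0.000543 and 0.00148, limma), so every direction here is that of the labels. Of 8 tested erythroid markers 4 were higher and 1 lower, with a summed signal from 707 to 3640 times the 75th percentile in control and from 2930 to 5830 in oxaliplatin samples. Of 6 tested platelet markers 4 were lower, with sums from 37.1 to 112 in control and from 13.0 to 18 in oxaliplatin samples. Of the erythroid markers 1 was above background on no array, and of the platelet markers 0 were. Their part in the members' differences was not tested. In bulk liver, fewer cells of a type and less RNA per cell cannot be told apart.

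Detection of these probes did not separate the groups. The share of the 8298 ENSMUST probes above background was 23.0%, 20.1%, 18.7% and 18.4% in control replicates 1 to 4, and 18.8%, 13.0%, 22.7% and 19.6% in oxaliplatin replicates 1 to 4. The means were 20.03% ± 2.09 and 18.48% ± 4.05 (SD, n = 4 each; two-sided exact permutation test, p = 0.571, where 0.0286 is the smallest p that 4 against 4 allows). Oxaliplatin replicate 2 was the lowest of all 8. It was also the lowest for all probes together (27.2% against 34.3% to 40.9% in the other samples).

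The level of the kept members shifted little. The median over the 1577 members was 0.12, 0.10, 0.02 and 0.01 on control arrays 1 to 4 and 0.14, 0.15, 0.21 and 0.16 on oxaliplatin arrays 1 to 4. Every oxaliplatin array was above every control array, by 0.02 between the nearest 2. The median over all tested probes ran the other way, from 1.08 to 1.13 on control and from 1.05 to 1.08 on oxaliplatin arrays. The median difference was 0.06 over the members and -0.09 over all tested probes, and 10% of the members lay under -0.71 and 10% above 0.87.

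Of the 1577 members 398 were called (25.2%), against a background of 18.4% of all tested probes. Under normexp, a model-based background correction, the shares were 18.2% of members and 17.6% of all probes, and under scaling to each array's median they were 56.4% and 70.9%. Of the 398, 243 had more signal in the samples labelled oxaliplatin and 155 had less. As shares of the members that is 15.4% higher, against 7.42% of all tested probes, and 9.83% lower, against 11.0%. This profile is not particular to the members. Probes named by the NONCODE catalogue of noncoding RNAs were 14.8% higher and 7.83% lower (22.6% called), with a median difference of 0.07. Of the 1577 members, 99 were called and at least 2-fold higher, against 1290 of all 54636 tested probes (2.36%). At least 2-fold lower and called were 65 of the 1577, against 1329 of the 54636 (2.43%). The other 1179 members did not pass. Taken over all levels, the 2 groups did not overlap for 470 members (29.8%), close to the 27.0% of all tested probes. Of the 470, 379 were called.

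The number of calls fell when single arrays were left out. Each such fit also has fewer arrays, and the part of that in the drop was not tested. Without control replicate 3, oxaliplatin replicate 3 or oxaliplatin replicate 4, there were 247, 241 and 262 calls in place of 398 (15.7%, 15.3% and 16.6% of members, against 8.79%, 9.24% and 10.8% of all probes), with 82, 90 and 95 lower members in place of 155, and without oxaliplatin replicate 3 there were 151 higher ones. Oxaliplatin replicates 1 and 2 carry another run name than the other 6 arrays. With the run name in the fit 181 members were called (11.5%, background 5.96%), 127 of them higher. On the 6 arrays of the first run name alone 169 were called (10.7%, background 5.14%), 103 of them higher. No control array carries the other run name. Both fits therefore compare oxaliplatin replicates 3 and 4 with the 4 control arrays, give the same differences and are not separate checks. Of the 398 calls, 166 and 151 were also called in the same direction in these 2 fits. The replicate number as a block left 207 calls (13.1%, background 6.98%).

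The split into higher and lower moved with the scaling. Of the members called, 61.1% were higher as reported, 50.5% with normexp, 63.8% after quantile normalization and 74.6% with the 75th percentile taken over probes above background on all 8 arrays. Median scaling gave 7.19%, and without the filter on dim probes the share was 91.9%. These 2 settings also moved the median of all tested probes, by -0.63 and 0.54. Relative to the median of all tested probes the members' median was higher by 0.10 to 0.18 over the 21 settings. Several of these leave the gap at its reported 0.16 by construction. They are median scaling, the percentile over detected probes, the other variance model and the replicate block. The 2 fits on the run name share their differences (0.18 in both). The 21 settings are therefore not separate checks.

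Brighter members passed the test more often. All tested probes were divided by their mean level into 4 bands of 13659, at -0.39, 1.06 and 3.25. The members fell mostly in the dim bands, with 606, 492, 330 and 149 from the dimmest to the brightest band, so 69.6% lay in the lower 2. In the dimmest band 136 members were called (22.4%, background 18.3%), 84 higher and 52 lower. In the second band 117 were called (23.8%, background 18.9%), 75 higher and 42 lower. In the third band 90 were called (27.3%, background 19.1%), 54 higher and 36 lower. In the brightest band 55 were called (36.9%, background 17.3%), 30 higher and 25 lower. The groups did not overlap for 24.6%, 27.2%, 33.9% and 50.3% of members, from the dimmest to the brightest band. The matching shares of all tested probes were 22.1%, 26.2%, 30% and 29.8%.

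Other kinds of probe ran in both directions over the bands. Probes named by the NONCODE catalogue of noncoding RNAs, 7188 of them tested, went from 19.5% called in the dimmest band to 33.3% in the brightest, with 143 higher and 24 lower there. Probes with curated RefSeq names went from 19.5% down to 16.0%, and probes named only by a genome interval from 16.7% up to 21.0%. The difference between these kinds of probe was not tested. The spread between replicates was larger for members than for all probes, with a median SD within groups of 0.39 against 0.38 in the dimmest band and 0.23 against 0.18 in the brightest. The median size of the difference was 0.44 for members and 0.25 for all probes in the brightest band, and 0.43 and 0.39 in the dimmest. Without oxaliplatin replicate 3 or 4 the brightest band held 32 and 35 calls in place of 55. The third band held 54, 59, 52 and 53 in place of 90 without control replicate 3 or oxaliplatin replicate 2, 3 or 4. The second band held 73 in place of 117 without oxaliplatin replicate 3, and the dimmest held 74, 84 and 90 in place of 136 without control replicate 3 or oxaliplatin replicate 3 or 4. With the run name in the fit the 4 bands held 60, 55, 37 and 29 calls, from the dimmest to the brightest. Over all bands that fit called 11.5% of members, against 5.96% of all tested probes. Shares of all probes by band are given for the main fit only. The band limits were set anew in each fit, so a band need not hold the same probes.

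Snhg5 and Zfas1, both hosts of small nucleolar RNAs in their introns, had less signal in the samples labelled oxaliplatin. The Zfas1 member, ENSMUST00000143587 (chromosome 2), had levels of 6.89, 7.04, 7.14 and 7.63 in control replicates 1 to 4 and of 6.12, 6.56, 6.10 and 6.24 in oxaliplatin replicates 1 to 4. The groups did not overlap, and the level fell by 0.92 ± 0.18 (adjusted p = 0.0141, limma; the error is the SE of 4 against 4 arrays). Its curated probe fell by 0.79 ± 0.19 (SE; adjusted p = 0.0248, limma). The Snhg5 member, ENSMUST00000183045, had levels of 4.72, 4.76, 4.76 and 6.26 in control and of 3.58, 4.20, 3.53 and 3.87 in oxaliplatin samples. Control replicate 4 stood far above the other 3 control arrays, and the groups did not overlap. The Snhg5 level fell by 1.33 ± 0.35 (SE; adjusted p = 0.033, limma), and the curated Snhg5 probe whose bases are in capitals above, at chr9:88415923-88415982 (mm9), fell by 1.29 ± 0.35 (adjusted p = 0.0375, limma). A second curated Snhg5 probe, which shares 44 bases and has no position in the files, fell by 1.35 ± 0.36 (adjusted p = 0.0347, limma). Leaving out 1 array moved the Snhg5 difference between -1.47 and -0.95. The Snhg5 call ended without control replicate 3 or oxaliplatin replicate 1, 3 or 4, while that of Zfas1 held without each array in turn. The Snhg5 call also ended with the replicate number as a block and on the first run name alone (adjusted p = 0.0571 and 0.111, limma). With the run name in the fit the Snhg5 call ended (adjusted p = 0.0983, limma), and on the first run name alone that of Zfas1 did (adjusted p = 0.0529, limma; range over its alternatives 0.000558 to 0.0529).

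The other 2 named members that were lower are long noncoding RNAs with no established role named here. 2310010J17Rik, ENSMUST00000181189, whose curated probe lies at chr7:97273376-97273435 (mm9), had levels from 6.31 to 6.64 in control and from 5.93 to 6.15 in oxaliplatin samples. It fell by 0.44 ± 0.11 (SE of 4 against 4; adjusted p = 0.0314, limma), close to the curated probe's -0.42 ± 0.12. This call ended when any array but control replicate 2 was left out, with differences from -0.51 to -0.40. It also ended with the run name in the fit, on the first run name alone (adjusted p = 0.128 and 0.139, limma; range over its alternatives 0.000651 to 0.139), after quantile normalization and with the percentile over detected probes. 1110046J04Rik, ENSMUST00000181800, whose curated probe lies at chr13:34051862-34051921 (mm9), had control levels from -1.45 to -1.05 and oxaliplatin levels from -2.32 to -1.62. It was well above background on 4 control arrays and on no oxaliplatin array, so the 2 means, -1.21 ± 0.18 and -1.99 ± 0.33 (SD, n = 4 each; adjusted p = 0.0223, limma), are given without a fold. The call of 1110046J04Rik ended without control replicate 3 or oxaliplatin replicate 4. It also ended with the run name in the fit, on the first run name alone and under normexp (adjusted p = 0.103, 0.0952 and 0.148, limma; range over its alternatives 0.000397 to 0.148), where the difference was -0.19.

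Gm20619 rose most among the members with a symbol. Its member, ENSMUST00000181192 (chromosome 6), had levels of -0.94, 1.28, -0.22 and -1.87 in control and of 3.33, 2.16, 3.33 and 3.20 in oxaliplatin samples. The control arrays were widely spread, and the lowest oxaliplatin array, replicate 2, was still above the highest control array. The difference was 3.44 ± 0.60 (SE, n = 4 per group; adjusted p = 0.00969, limma), and the curated probe gave 3.78 ± 0.56 (adjusted p = 0.00587, limma). The call held under each of the 19 alternatives that kept the probe, with adjusted p values from 0.0017 to 0.0463.

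A further 4 named members were higher. Mir100hg, a host gene of microRNAs on chromosome 9, had levels of 0.30, 0.08, -0.25 and -0.49 in control and of 0.22, 0.60, 0.78 and 0.85 in oxaliplatin samples, where oxaliplatin replicate 1 overlapped the control range. Mir100hg rose by 0.70 ± 0.21 (SE; adjusted p = 0.0472, limma), and its curated probe by 1.04 ± 0.26 (adjusted p = 0.0283, limma). 5830454E08Rik, whose curated probe lies at chr9:120487128-120487187 (mm9), had levels from -1.17 to 0.17 in control and from 0.26 to 1.22 in oxaliplatin samples and rose by 1.07 ± 0.30 (adjusted p = 0.0407, limma), while its curated probe gave 0.40 ± 0.32 and did not pass (adjusted p = 0.396, limma).

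BC065397, on chromosome X, had levels from -1.45 to -0.72 in control and from -0.49 to 0.23 in oxaliplatin samples, a rise of 0.87 ± 0.22 (SE, n = 4 per group; adjusted p = 0.0284, limma), against 0.51 ± 0.16 for its curated probe (adjusted p = 0.0603, limma). Foxd2os, a transcript from the strand opposite to the transcription factor gene Foxd2 on chromosome 4, had levels from -0.38 to -0.05 in control and from 0.05 to 0.51 in oxaliplatin samples, a rise of 0.55 ± 0.13 (adjusted p = 0.0251, limma). Its curated probe gave 0.43 ± 0.16 (adjusted p = 0.0884, limma). Under median scaling, which lowers all differences, Foxd2os gave -0.07.

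The replicate number as a block ended the calls of Mir100hg, 5830454E08Rik, BC065397 and Foxd2os (adjusted p = 0.131, 0.0849, 0.0819 and 0.0716, limma). Each of these 4 calls also ended when certain single arrays were left out. That of Mir100hg ended without control replicate 2, 3 or 4 or oxaliplatin replicate 2, 3 or 4 (differences from 0.57 to 0.83), and that of 5830454E08Rik without the same 6 (0.80 to 1.25). The BC065397 call ended without control replicate 3 or oxaliplatin replicate 3 or 4 (0.70 to 1.01). The Foxd2os call ended without control replicate 1 or 2 or oxaliplatin replicate 1, 3 or 4 (0.48 to 0.63). With the run name in the fit the calls of Mir100hg, 5830454E08Rik and Foxd2os ended (adjusted p = 0.0636, 0.0665 and 0.0516, limma), at larger differences of 0.91, 1.33 and 0.66, and that of BC065397 held. Normexp gave 0.29 for Mir100hg, 0.24 for BC065397 and 0.15 for Foxd2os and ended these 3 calls, and gave 0.49 for 5830454E08Rik, whose call held. Over all alternatives the adjusted p (limma) ran from 0.0345 to 0.788 for Mir100hg, 0.0308 to 0.215 for 5830454E08Rik, 0.0244 to 0.338 for BC065397 and 0.0125 to 0.683 for Foxd2os.

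In all, 9 of the 22 named members were called, 5 higher and 4 lower (40.9%, background 18.4%), and their median difference was 0.08 against -0.09 over all tested probes. The other 13 had differences from -0.24 to 0.53. They include Pvt1, the neighbour of Myc on chromosome 15, with 0.11 ± 0.17 (SE, n = 4 per group; adjusted p = 0.693, limma), and Dleu2, a host of microRNAs on chromosome 14, with 0.34 ± 0.43 (adjusted p = 0.597, limma). Morrbid, which acts on the cell death gene Bcl2l11 in white blood cells, gave -0.23 ± 0.14 (adjusted p = 0.264, limma). Chaserr, which lies next to the chromatin remodeller gene Chd2 on chromosome 7, gave -0.24 ± 0.11 (adjusted p = 0.143, limma), although its control levels, 5.57 to 5.81, did not overlap its oxaliplatin levels, 5.35 to 5.53.

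The curated probe was also tested for 19 of the 22. The ENSMUST and curated differences had the same sign in 16 of the 19, with a median gap of 0.15 in size. Of the 8 called members with a tested curated probe, 5 were also called by it, those of Snhg5, Zfas1, 2310010J17Rik, Gm20619 and Mir100hg. The probes of a pair overlap in sequence and were read on the same 8 arrays, so they are not independent measurements. Chaserr and Gm11961 had the same 60 bases in both probes, and the paired differences were -0.24 and -0.27 for Chaserr and 0.44 and 0.29 for Gm11961. The gap was widest for 5830454E08Rik (1.07 against 0.40) and 2310001K24Rik (0.45 against -0.18), whose ENSMUST probe did not pass (adjusted p = 0.252, limma).

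Of the 21 members in a promoter window, 16 read the strand opposite to the gene and 5 the same strand. Those 2 whose sequences are given above were called, and both were higher. The member opposite Lockd had levels of -1.65, -0.99, -2.49 and -1.44 in control and of -0.30, -0.70, -0.48 and -0.75 in oxaliplatin samples. It rose by 1.09 ± 0.29 (SE, n = 4 per group; adjusted p = 0.0343, limma), and no curated Lockd probe was tested. The member opposite Zfp932 had levels from -0.34 to -0.07 in control and from 0.00 to 0.80 in oxaliplatin samples and rose by 0.66 ± 0.18 (adjusted p = 0.0377, limma). The Zfp932 probe itself rose by 0.77 ± 0.17 (adjusted p = 0.0207, limma). The call opposite Lockd ended when any array but control replicate 2 or 3 was left out (0.80 to 1.30), and the call opposite Zfp932 ended when any array but oxaliplatin replicate 1 was (0.55 to 0.82). The call opposite Lockd also ended with the run name in the fit and on the first run name alone (adjusted p = 0.133 and 0.151, limma; range over its alternatives 0.0199 to 0.158), while that opposite Zfp932 held in both. Normexp ended both calls, with differences of 0.23 opposite Lockd and 0.31 opposite Zfp932. So did the replicate number as a block (adjusted p = 0.0785 and 0.0998, limma).

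For 10 of the 16 opposite-strand members the gene had a tested curated probe, and 5 of the 10 pairs had differences of the same sign. Zkscan17, another zinc finger gene, fell by 0.55 ± 0.12 (SE of 4 against 4; adjusted p = 0.0206, limma) while the member on its opposite strand gave 0.34 ± 0.27 (adjusted p = 0.404, limma). Crot, a peroxisomal carnitine acyltransferase, gave 1.12 ± 0.42 (adjusted p = 0.0923, limma), and the member opposite it gave -0.06 ± 0.10 (adjusted p = 0.706, limma). Among the 5 on the same strand, the member in the window of Meg3, an imprinted noncoding RNA on chromosome 12, gave 1.15 ± 0.49 (adjusted p = 0.126, limma), and the brightest curated Meg3 probe rose by 1.90 ± 0.48 (adjusted p = 0.0299, limma). A place in a window is a match of letters and does not show that the transcript starts there.

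A further 2 members shared nearly all their bases with a microRNA hairpin in RefSeq. ENSMUST00000145438 shared 60 with Mir6516 and gave -0.45 ± 0.30 (SE, n = 4 per group; adjusted p = 0.313, limma). ENSMUST00000158164 shared 58 with Mir3069 and gave 0.07 ± 0.21 (adjusted p = 0.846, limma). These probes read RNA that contains the hairpin sequence, not the mature microRNA.

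The largest differences belonged to members without a symbol. The 12 largest rises ran from 1.98 to 3.68 on the log2 scale, 1 of them Gm20619, and the 12 largest falls from 1.64 to 3.18 in size, with adjusted p values (limma) from 0.00285 to 0.0174 and from 0.00301 to 0.0296. These were taken among members whose groups did not overlap and that were detected in all 4 samples of the brighter group. In 3 of the 12 rises and 5 of the 12 falls the dimmer group was above background on no array, so those fitted differences rest on background-level signals.

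ENSMUST00000213681 had levels of -2.01, -0.18, -1.10 and -3.76 in control and of 2.26, 1.04, 2.17 and 2.20 in oxaliplatin samples, a rise of 3.68 ± 0.68 (SE, n = 4 per group; adjusted p = 0.0115, limma). It was above background on 2 control arrays and all 4 oxaliplatin arrays. ENSMUST00000207035 had levels from -1.65 to -1.19 in control and from 0.14 to 0.57 in oxaliplatin samples, a rise of 1.72 ± 0.15 (adjusted p = 0.00162, limma). It too was above background on 2 of 4 control arrays. Normexp gave 1.55 for ENSMUST00000213681 and 0.57 for ENSMUST00000207035, and both calls held.

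ENSMUST00000185242 had levels of 3.14, 2.92, 2.70 and 4.13 in control and of 0.70, 0.22, -0.09 and -0.65 in oxaliplatin samples, above background on all 8 arrays. It fell by 3.18 ± 0.36 (SE of 4 against 4; adjusted p = 0.00316, limma). ENSMUST00000122673 had levels from 4.11 to 4.21 in control and from 2.89 to 3.15 in oxaliplatin samples, and fell by 1.18 ± 0.10 (adjusted p = 0.00175, limma). The calls of these 4 members held without each array in turn and with the run name in the fit, and that of ENSMUST00000213681 ended on the first run name alone (adjusted p = 0.0537, limma; range over its alternatives 0.00203 to 0.0537).

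Detection in 1 group only was mostly on the control side, for members as for all tested probes (804 against 27 probes). The members above background on all 4 control arrays and no oxaliplatin array numbered 26 (1.65%, background 1.47%), and those above background on all 4 oxaliplatin arrays and no control array numbered 3 (0.19%, background 0.0494%). Detection was lowest on oxaliplatin replicate 2, and its part in these counts was not tested. The 8 brightest members had mean levels from 8.44 to 9.64. Of these, 2 were higher, 2 were lower and 4 did not pass, with differences from -0.62 to 0.83.

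Members are not all separate transcripts. By shared runs of 30 bases they fell into 1540 sets, 28 of them with 2 or more members and 65 members in those 28. The largest set had 7 members, with mean levels up to 5.20, and all 7 were called with differences from 0.94 to 1.17, so 7 of the 243 higher calls read the same sequence. Over the 56 overlapping pairs of members the differences had a median gap of 0.09 in size, and in 53 pairs the sign was the same. In each pair with both members called, 30 in all, the direction was the same. Pairs within the set of 7 are among them, so the 30 are not independent. Over 48 overlapping pairs of a member and a NONCODE probe the median gap was 0.10, with the same sign in 46.

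Base composition differed little between kinds of probe. The median GC content was 41.7% for members, 40.0% for curated probes, 43.3% for NONCODE probes and 45.0% for interval probes. The 501 members with at most 22 G or C bases of 60 had a median difference of 0.13 (all tested probes of that class -0.02), with 98 higher and 42 lower (27.9% called, background 18.2%). The 387 with 23 to 25 such bases had 0.14 (all -0.07), with 66 higher and 38 lower (26.9%, background 18.3%). The 561 with 26 or 27 had -0.03 (all -0.12), with 61 higher and 61 lower (21.7%, background 17.8%). The 128 with more had 0.06 (all -0.16), with 18 higher and 14 lower (25%, background 19.8%). Across the 1577 members GC content and difference had r = -0.11, a description over probes of the same 8 arrays.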

How the data were processed

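RNA from 4 control and 4 oxaliplatin mouse livers was labelled with Cy3 and read on Agilent one-colour arrays. The submitters' processing notes give version 10.7 of Agilent Feature Extraction, and limma; the file headers give version 12.0.3.1, which is taken here. The deposited processed signal, per the file headers, is a linear intensity after background subtraction within the array, not yet scaled between arrays, and the positions are on mm9.

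For each array log2 of the processed signal was taken and its 75th percentile over the 149782 non-control probes was subtracted. Outlier-flagged spots were left out after scaling (1 spot among the members; none was saturated). Probes well above background on at least 4 of 8 arrays were fitted with limma 3.58.1 (R 4.3.3; lmFit and eBayes, 6 residual and 2.76 prior degrees of freedom), 4 arrays against 4, with Benjamini-Hochberg adjustment over all 54636 probes. The fit was tested on simulated data with independent noise, where 100 changes of 1 and 100 of 2 on the log2 scale were planted among 54636 probes. Of these changes 56% and 90% were recovered, and 8 of 154 calls were false. Far fewer probes were changed there than were called in these data. No slide or run effect was simulated, so these shares need not hold here. Single values per array were compared with an exact permutation test (scipy 1.17.1).

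Probe sequences were matched by runs of at least 30 bases to other probes, RefSeq promoter windows and microRNA hairpins; this minimum was chosen after the files were seen. Curated probes took their symbols from RefSeq (GRCm38.p6). As a check of strand, 53 curated probes lay in their own gene's window on the same strand and 0 on the opposite one. Named members are those with a symbol or window, and, without a symbol, the largest and the most significant rise and fall among members with groups that did not overlap and with the brighter group above background on all its arrays; the other members picked by the same rule are given as ranges. Sequences of members with no known chromosome are not printed. The members and lists were chosen with earlier results of these data known. The number of arrays limits the precision. Marker lists for sinusoidal endothelium, Kupffer, stellate, bile duct, T and NK, B and plasma, neutrophil and pancreas acinar cells had 0, 1, 0, 0, 2, 0, 0 and 2 members higher and 1, 1, 1, 0, 0, 0, 0 and 0 lower; that for hepatocytes had 3 higher and 0 lower. Alternatives covered the background, scaling, filter, flags, variance model, replicate block, run name and each array left out.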

Additional observations from a re-analysis of the deposited data

Results flagged for a closer look

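In groups of 4 arrays, 1 array stood apart from the other 3 by Dixon's ratio in 4 of the 32 groups looked at. Chance gives such a result in about 1 of 20 groups. The 32 groups do not cover every member described by name. The Snhg5 level on control replicate 4 was 6.26, against 4.72 to 4.76 on the other control arrays. The Gm20619 level on oxaliplatin replicate 2 was 2.16, against 3.20 to 3.33. The ENSMUST00000213681 level on the same array was 1.04, against 2.17 to 2.26. The BC065397 level on control replicate 3 was -1.45, against -0.83 to -0.72. Outside this list, the Dleu2 level on control replicate 4 was 1.47, against 3.26 to 3.34 on the other control arrays. On oxaliplatin replicate 1 the Dleu2 level was 2.57, against 3.34 to 3.47 on the other oxaliplatin arrays. Without control replicate 4 the Dleu2 difference was -0.12 in place of 0.34.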

How the results depend on the processing

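The number of members called (398) became 890 under median scaling and 207 with the replicate block. With the run name as a covariate it was 181, and on the first run name only 169. It ran from 241 to 363 without each array in turn. Without the filter all 8298 ENSMUST probes were fitted in place of 1577, and 1766 of them were called (21.3%, background 14.7%). The higher members (243) became 145, 64, 1623, 135, 127 and 103 under normexp, median scaling, no filter, the block, the run covariate and the first run only, and ran from 151 to 233 without each array. The lower members (155) became 826 under median scaling, 97 with the percentile over detected probes, 72 with the block, 54 with the run covariate and 66 on the first run only, and ran from 82 to 130. The members' median difference was 0.01 under normexp, -0.57 under median scaling, 0.17 with the percentile over detected probes, 0.00 with all 4 arrays of a group above background, 0.59 without the filter and 0.14 in both fits on the run name, and ran from 0.04 to 0.10 without each array.

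The calls in the 4 bands (136, 117, 90 and 55) became 306, 291, 195 and 98 under median scaling, 60, 55, 37 and 29 with the run covariate, and 67, 42, 32 and 28 on the first run only. Normexp left 47 in the dimmest band, no filter gave 958, 544 and 153 in the other 3, and the filter on all 8 arrays left 51 in the third. Without each array in turn the bands ran from 74 to 119, 73 to 108, 52 to 84 and 32 to 52, from the dimmest to the brightest. The band limits were set anew in each of these fits, so the bands need not hold the same probes. The difference in the share of ENSMUST probes above background, -1.55 percentage points, was 7.38 by the looser detection flag (exact permutation p = 0.314), and ran from -2.95 to 0.287 without each array, where it turned to 0.287 without oxaliplatin replicate 2 (exact permutation p = 0.971). Under median scaling the difference turned to -0.59 for 2210408F21Rik, -0.07 for Foxd2os, -0.52 for Pvt1, -0.41 opposite Gm32705, -0.48 opposite Gm41607, and -0.45 and -0.54 for 2 of the brightest members. In these 7 a value passed the test under at least 1 of the 2 settings; the sign also turned for 12 others of the 77 members compared, which passed under neither. The cause of these changes was not tested. Of the 41 called members named or picked by the rule, 16 kept their call under every alternative run. Many of the 41 were picked for large differences or small adjusted p values in these same data, which favours keeping a call. Among the called members with a symbol or promoter window, only Gm20619 kept its call throughout.

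The replicate numbers gave no sign of pairing the samples. The deviations of same-numbered arrays correlated from -0.22 to 0.023, and no array correlated best with its own number. With 4 pairs of arrays this cannot exclude pairing. A fit on ENSMUST probes alone was not run, since it would adjust over the list alone, and a slide term could not be fitted. In the dimmest band signals lie near background, which limits what can be said there.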
